A study of Mus musculus with 7 samples.

Results

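Lipoprotein receptors and cholesterol efflux transporters were examined in the lungs of mice that lack Gata5, a GATA-binding regulator of transcription. The 9 genes were Lrp1, Lrp8, Vldlr, Sorl1, Lrpap1, Abca1, Abcg1, Pltp and Scarb1, and all probe sets that the platform annotation assigns to one of them alone were taken, which gave 9 of 18193 genes on the array and 28 of 45037 probe sets that are not controls. Left lungs were collected at 8 weeks of age from 3 mice with a Gata5 deletion (Gata5 KO, here KO) and from 4 wild-type mice (WT), and total RNA of each lung was hybridised to 1 Affymetrix Mouse Genome 430 2.0 array. The sources used here do not give the deleted exons, the strain or the sex of the mice. Each array reports a log2 level for every probe set, a set of short oligonucleotides against 1 stretch of a transcript, and levels of different probe sets are not on a common scale.

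Cells take up lipoproteins through receptors of the low-density lipoprotein (LDL) receptor family, which bind apolipoprotein E and many other ligands and carry them into endosomes through clathrin-coated pits. Cholesterol leaves cells through ABC transporters, which hand it to apolipoprotein A-I and to high-density lipoprotein (HDL), and the liver X receptors (LXR), which sense oxysterols, switch on Abca1 and Abcg1 when sterols build up. In the lung this traffic supplies lipid to the cells that make surfactant, and alveolar macrophages depend on Abcg1 to clear surfactant cholesterol.

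Lrp1 fell and Sorl1 rose at the brightest probe set of each gene, and no other member passed there. That fit covered 13285 genes, with the probe set of highest mean standing for each gene, using limma and Benjamini-Hochberg adjustment and a threshold of 0.05. All 9 members lay above its level filter, a mean log2 level of 5.47, and 2 of 9 passed, 1 lower and 1 higher, against 15.6% of all genes tested (10% lower and 5.56% higher). KO and WT arrays did not overlap at 3 of the 9, Lrp1, Sorl1 and Abcg1, against 29.6% of all genes. In a second fit over all 45037 probe sets 6 of the 28 member probe sets passed (21.4%), 5 lower and 1 higher in KO, against 9.89% of all probe sets (6.37% lower and 3.53% higher). Those 6 belong to Lrp1, Vldlr, Sorl1, Pltp and Scarb1, and 22 did not pass. With 1 array left out the count was 2 (without KO replicate 3, WT replicate 2 or WT replicate 4), 3 (without KO replicate 2 or WT replicate 1), 5 (without KO replicate 1) or 6 (without WT replicate 3), and 4.38% to 9.44% of all probe sets passed. All 6 lie among the 23 member probe sets above the level filter, and with dim probe sets left out of the fit 6 of 23 passed, against 17.5% of all. KO and WT arrays did not overlap at 8 member probe sets (28.6%), 6 lower and 2 higher, against 23.4% of all probe sets. The median log2 change was -0.02 over the 9 genes and -0.003 over all genes tested, and -0.01 over the 28 probe sets and 0.04 over all probe sets. After quantile normalization of the deposited values 4 member probe sets passed lower and 3 higher, after cyclic loess 4 lower and 2 higher, and after centring on array medians 5 lower and 1 higher. Of all probe sets 9.58%, 9.26% and 10.1% passed in these 3 settings. Scarb1 1416050_a_at lost its call in the first 2 of these, and the other 5 calls stood in all 3.

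**Figure D1:**
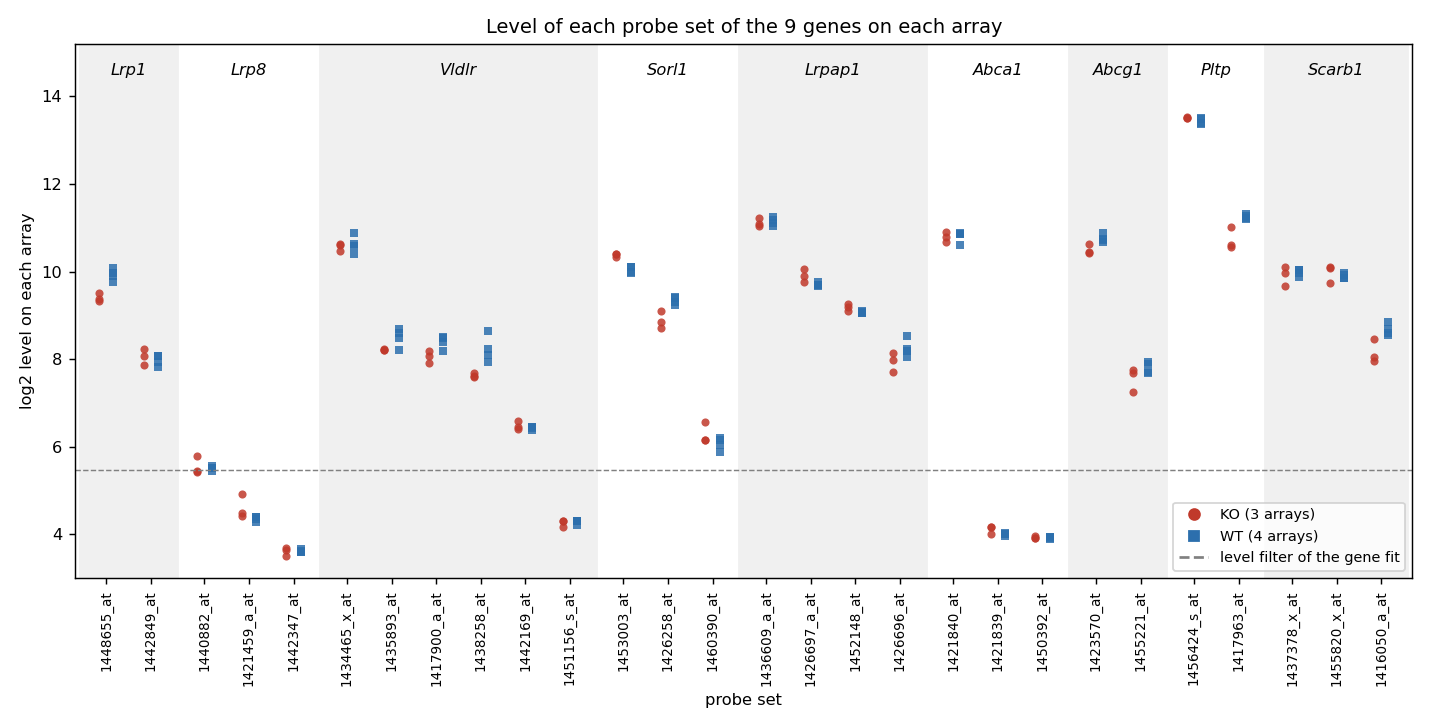
Log2 level of each of the 28 probe sets (x axis, grouped by gene) on each array, with KO arrays as red circles and WT arrays as blue squares; the dashed line is the level filter at 5.47. The KO points of Lrp1 1448655_at, between 9.33 and 9.51, lie under all 4 WT points, and those of Sorl1 1453003_at, between 10.33 and 10.39, lie over them.

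**Figure D2:**
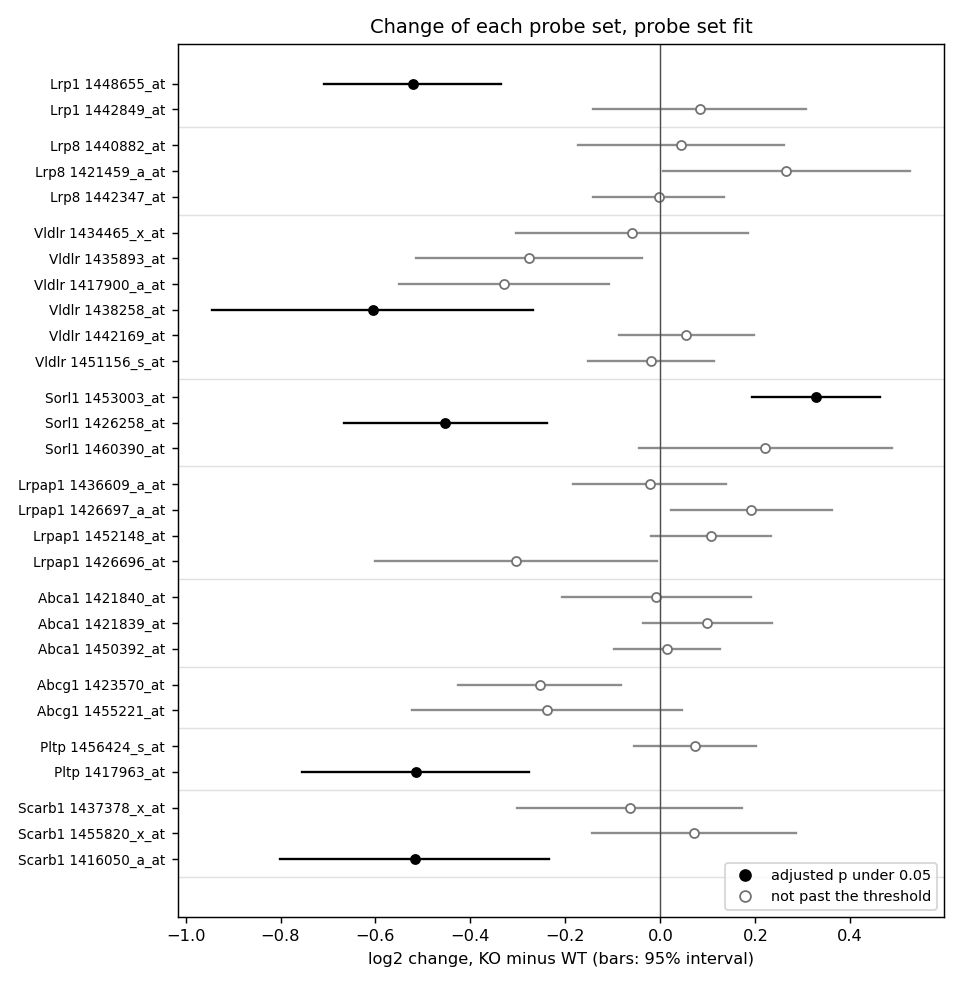
Log2 change, KO minus WT, of each of the 28 probe sets in the probe set fit, with 95% intervals; filled points passed an adjusted p of 0.05 and open points did not. The 6 filled points are at Lrp1, Vldlr, Sorl1 (2 probe sets, of opposite sign), Pltp and Scarb1.

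Gata5, the targeted gene, was dim in both groups: 1450126_at read 4.98, 4.71 and 5.15 in KO and 5.32 to 5.85 in WT (log2 change -0.60, limma adjusted p = 0.0336 in the probe set fit, lost in 5 of 7 cases with 1 array left out), and 1450125_at 4.46 to 4.82 and 4.88 to 5 (-0.26, adjusted p = 0.0993). Whether these probe sets lie in the deleted part is unknown here, so they may not check the labels. The groups also differed in control probe sets, and the part of these in the members' results was not tested. On each array the 3′ end of the beta-actin control exceeded the 5′ end by a log2 difference of 4.74 to 5.39 in KO and 3.88 to 4.31 in WT, and the Gapdh control exceeded its middle part by 3.85 to 4.31 in KO and 3.33 to 3.68 in WT. Beta-actin 3′ minus middle was 2.84 to 3.34 in KO and 2.23 to 2.56 in WT. None of the 3 measures overlapped between the groups (exact two-sided permutation p = 0.0286 for each, the smallest that 35 splits can give). When one of these measures was a covariate in limma, 0 of 9 member genes and 0 of 28 member probe sets passed, with 1 to 3 genes and 4 to 5 probe sets at unadjusted p under 0.05. The loss was shared by the whole array, with 0 to 5 of 13285 genes and 0 to 13 of 45037 probe sets passing. Because each measure separated KO from WT, these fits cannot tell the measure from the genotype. Xist, the RNA of the silenced X chromosome of females, stood at 12.72 in WT replicate 4 and at 6.31 to 6.48 on the other 6 arrays. By this RNA WT replicate 4 reads as female and the other 6 arrays as male. Lung markers were present on all arrays, with a mean level of type 2 cell markers of 11.60 to 11.74 in KO and 11.87 to 12.13 in WT.

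Markers of several lung cell types stood at different levels in the groups. Of all genes tested 10% fell and 5.56% rose, and the counts of 1 for alveolar macrophage and type 2 cell markers are near that share. Of 8 tested endothelial markers 4 fell, and their mean level was 8.96 to 9.28 in KO and 9.50 to 9.89 in WT. Of 8 alveolar macrophage markers 1 fell (mean level 8.63 to 9.06 in KO and 9.09 to 9.28 in WT), of 7 type 2 cell markers 1, of 8 fibroblast and smooth muscle markers 2 (11.05 to 11.18 and 11.26 to 11.35) and of 4 mesothelial markers 3 (5.70 to 6.43 and 6.60 to 7.53), while 3 of 6 platelet markers rose (8.51 to 8.76 and 7.89 to 8.32). None of 6 type 1 cell, 6 lymphocyte, 4 neutrophil, 1 adipose, 4 cardiac or 4 club cell markers passed, and the mean levels of these lists overlapped. In whole lung, fewer cells of a type and less RNA per cell cannot be told apart. The part of these cell types in the results on the members was not tested.

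The members divide into large endocytic receptors, their chaperone, and the genes of cholesterol efflux. The promoters of 4 are printed, of Lrp1, Vldlr and Sorl1, which had a probe set that passed, and of Abca1, which had none. Pltp and Scarb1 also had a probe set that passed. The Pltp window was searched but is not printed, and Scarb1 had no window. Lrp1 and Sorl1 passed at the gene level, Vldlr passed at 1 probe set, and Abca1, the textbook LXR target, passed at none. A RefSeq promoter table (GRCm38.p6) held 7 of the 9 members, and the 250 bases before the most upstream start listed were searched on both strands for GATA sites (AGATAA, with TGATAA as the second form, each also with G as its last base), for a direct repeat as LXR binds (GGTNA followed after 5 bases of any kind by a second GGTNA) and for the E-box CACGTG. The windows are Lrp1 chr10:127621149-127621398, minus strand, Vldlr chr19:27216234-27216483, plus strand, Sorl1 chr9:42124298-42124547, minus strand, and Abca1 chr4:53159896-53160145, minus strand. Each is written 5′ to 3′ in the direction of the gene, with matches in capitals.
Lrp1: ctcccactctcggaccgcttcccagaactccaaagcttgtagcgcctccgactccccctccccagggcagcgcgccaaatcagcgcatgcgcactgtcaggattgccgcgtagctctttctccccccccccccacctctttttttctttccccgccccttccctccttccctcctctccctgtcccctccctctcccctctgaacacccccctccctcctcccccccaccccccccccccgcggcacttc
Vldlr: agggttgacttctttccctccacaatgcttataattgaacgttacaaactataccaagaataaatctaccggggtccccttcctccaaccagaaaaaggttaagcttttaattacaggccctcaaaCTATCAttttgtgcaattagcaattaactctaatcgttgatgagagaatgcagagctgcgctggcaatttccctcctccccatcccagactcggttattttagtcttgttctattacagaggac
Sorl1: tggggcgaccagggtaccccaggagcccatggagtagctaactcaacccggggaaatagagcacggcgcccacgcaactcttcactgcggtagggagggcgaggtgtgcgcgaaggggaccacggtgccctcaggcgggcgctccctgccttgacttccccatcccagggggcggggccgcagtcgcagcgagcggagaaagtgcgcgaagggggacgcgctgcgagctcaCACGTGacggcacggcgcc
Abca1: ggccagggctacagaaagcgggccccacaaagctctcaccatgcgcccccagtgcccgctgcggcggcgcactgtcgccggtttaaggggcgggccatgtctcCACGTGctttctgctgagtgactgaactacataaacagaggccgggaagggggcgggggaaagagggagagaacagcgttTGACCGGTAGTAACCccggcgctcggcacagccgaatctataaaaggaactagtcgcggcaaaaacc
The Lrp1 window held none of these motifs. The Vldlr window held 1 GATA site on the opposite strand, 124 to 119 bases before the start, where 26.5% of the 32851 windows of the table hold at least 1. Sorl1 had an E-box 19 to 14 bases before its start, and Abca1 one 147 to 142 bases before, a motif found in 6.02% of windows. The Abca1 window also held the direct repeat, 67 to 53 bases before the start and on the opposite strand, which 0.621% of windows hold. The windows of Lrp8, Lrpap1 and Pltp held none of the 3 motifs. A match is a run of letters and does not show that a factor binds there.

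Lrp1, a very large endocytic and signalling receptor that clears apolipoprotein E remnants, protease-inhibitor complexes and matrix proteins, fell at its brightest probe set. Probe set 1448655_at stood at 9.51, 9.33 and 9.37 on the KO arrays and at 9.90, 10.07, 9.77 and 9.96 on the WT arrays, so every KO array lay below every WT array. The means were 9.40 ± 0.09 (SD, n = 3) and 9.92 ± 0.13 (SD, n = 4), a 1.44-fold decrease (log2 change -0.52, 95% interval -0.71 to -0.33, limma adjusted p = 0.00902 in the gene fit). The call held whichever array was left out, with adjusted p up to 0.0307. The other Lrp1 probe set, 1442849_at, read 7.86, 8.07 and 8.22 in KO and 8.06, 7.81, 8.06 and 7.94 in WT. Here the groups overlapped and the log2 change was 0.08 (95% interval -0.14 to 0.31). With the mean of both probe sets the log2 change of Lrp1 was -0.22 (limma adjusted p = 0.0253). Adding the beta-actin 5′ measure to the model gave -0.28, the beta-actin middle measure -0.46 and the Gapdh measure -0.32, and the call was lost each time (limma adjusted p = 0.374, 0.331 and 0.243). Nearly all genes of the array lost their calls in these fits.

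Sorl1 encodes SORLA, a sorting receptor that joins features of the LDL receptor family and of the Vps10 family and steers cargo between endosomes and the Golgi. Its probe sets moved in opposite directions. At 1453003_at, the brightest, the KO arrays read 10.33, 10.39 and 10.39 and the WT arrays 10.11, 9.99, 9.97 and 10.10, with every KO value above every WT value. This was a 1.25-fold increase (log2 change 0.33, 95% interval 0.19 to 0.47, limma adjusted p = 0.0136 in the gene fit), and it held whichever array was left out, with adjusted p up to 0.0403. At 1426258_at the KO arrays read 9.10, 8.84 and 8.72 and the WT arrays 9.40, 9.41, 9.24 and 9.31, a 1.37-fold decrease without overlap (log2 change -0.45, 95% interval -0.67 to -0.24, limma adjusted p = 0.0229 in the probe set fit). The third, 1460390_at, ranged from 6.15 to 6.55 in KO and from 5.88 to 6.19 in WT, with a log2 change of 0.22. The mean over all 3 gave a log2 change of 0.03 for the gene (limma adjusted p = 0.723). The decrease at 1426258_at lost its call without KO replicate 2 or 3 or WT replicate 1, 2 or 4 (log2 change -0.46 to -0.37, adjusted p up to 0.0662).

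Vldlr, the very-low-density lipoprotein receptor, takes up triglyceride-rich particles beside lipoprotein lipase and also binds reelin. It had 6 probe sets, of which 1 fell. At 1438258_at the KO arrays read 7.69, 7.61 and 7.58 and the WT arrays 8.65, 8.10, 7.94 and 8.24, so that KO lay below WT throughout. The decrease was 1.52-fold (log2 change -0.61, 95% interval -0.94 to -0.27, limma adjusted p = 0.0385 in the probe set fit). At 1417900_a_at the values were 8.08, 8.19 and 7.91 in KO and 8.50, 8.40, 8.18 and 8.48 in WT, with overlap only between KO replicate 2 and WT replicate 3 and a log2 change of -0.33. At 1435893_at they were 8.20, 8.24 and 8.21 in KO and 8.68, 8.59, 8.21 and 8.49 in WT, with WT replicate 3 inside the KO range and a log2 change of -0.28. WT replicate 3 was the lowest WT array at each of these 3 probe sets. Without it, 1417900_a_at and 1435893_at passed as well as 1438258_at in the probe set fit. The brightest, 1434465_x_at, ranged from 10.46 to 10.63 in KO and from 10.40 to 10.88 in WT (log2 change -0.06, limma adjusted p = 0.717 in the gene fit). That sign turned, to 0.04 after quantile normalization and to 0.008 after cyclic loess. The remaining ones, 1442169_at and the dim 1451156_s_at, had log2 changes of 0.05 and -0.02. The call at 1438258_at was lost when KO replicate 1, 2 or 3 or WT replicate 2 or 4 was left out, at log2 changes of -0.65 to -0.58 (limma adjusted p up to 0.113).

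Lrp8, also called ApoER2, is the closest relative of Vldlr and shares its ligand reelin, with most of its known roles in brain and testis. It was the dimmest member: the brightest of its 3 probe sets, 1440882_at, had a mean of 5.52, just above the level filter, and 2 lay under it. At 1440882_at the KO arrays read 5.43, 5.79 and 5.41 and the WT arrays 5.50, 5.44, 5.50 and 5.56, with overlap (log2 change 0.04, 95% interval -0.18 to 0.26, limma adjusted p = 0.769 in the gene fit). KO replicate 2 alone lay above WT, and without it the log2 change was -0.08. At 1421459_a_at the KO arrays, at 4.49, 4.42 and 4.92, all lay above the WT arrays, at 4.34, 4.39, 4.27 and 4.38. The log2 change of 0.27 did not pass (limma adjusted p = 0.164 in the probe set fit). At 1442347_at it was -0.003.

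Lrpap1 encodes RAP, the chaperone that escorts newly made receptors of this family through the endoplasmic reticulum and keeps ligands from binding early. None of its 4 probe sets passed. The brightest, 1436609_a_at, read 11.09, 11.23 and 11.04 in KO and 11.17, 11.04, 11.12 and 11.24 in WT (log2 change -0.02, 95% interval -0.19 to 0.14, limma adjusted p = 0.845 in the gene fit). At 1426697_a_at the KO arrays read 9.89, 10.05 and 9.75 and the WT arrays 9.69, 9.70, 9.68 and 9.75, touching at 9.75 (log2 change 0.19). At 1426696_at the values were 7.98, 8.14 and 7.71 against 8.19, 8.05, 8.23 and 8.52, with overlap and a log2 change of -0.30. The fourth, 1452148_at, ranged from 9.10 to 9.25 and from 9.05 to 9.10 (log2 change 0.11). Quantile normalization took 1426697_a_at and 1452148_at past the threshold, and cyclic loess took 1426697_a_at past it.

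Abca1, which loads cholesterol and phospholipid onto apolipoprotein A-I, showed no change that passed. Its bright probe set, 1421840_at, read 10.67, 10.90 and 10.79 in KO and 10.85, 10.87, 10.60 and 10.86 in WT, and the ranges lay over each other. The log2 change was -0.008, with a 95% interval of -0.21 to 0.19 (limma adjusted p = 0.955 in the gene fit), so a change of about the size seen at Lrp1 lies outside the interval. The others, 1421839_at and 1450392_at, lay under the level filter at 3.91 to 4.15 on all arrays, with log2 changes of 0.10 and 0.01.

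Abcg1, which exports cholesterol to HDL and is abundant in alveolar macrophages, was lower on every KO array at its brightest probe set but did not pass. At 1423570_at the KO arrays read 10.45, 10.64 and 10.42 and the WT arrays 10.73, 10.68, 10.74 and 10.88. The log2 change was -0.25 (95% interval -0.43 to -0.08, limma adjusted p = 0.0583 in the gene fit). At 1455221_at, which overlapped, the values were 7.69, 7.75 and 7.25 in KO and 7.88, 7.71, 7.69 and 7.93 in WT, with a log2 change of -0.24. On each array the difference between both probe sets was taken, and it changed by -0.02 between the groups (95% interval -0.25 to 0.22). In the gene fit Abcg1 passed without KO replicate 2 (log2 change -0.32, limma adjusted p = 0.0324) and with an intensity trend in the variance model (adjusted p = 0.0468).

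Pltp, the phospholipid transfer protein that remodels HDL and is secreted in the lung by type 2 cells, had the highest readings of the members. At 1456424_s_at the KO arrays read 13.50, 13.50 and 13.53 and the WT arrays 13.49, 13.39, 13.50 and 13.37, near the top of the scale of these arrays, whose highest values were 14.45 to 14.61. The log2 change there was 0.07 (95% interval -0.06 to 0.21, limma adjusted p = 0.4 in the gene fit). At 1417963_at the KO arrays read 11.01, 10.61 and 10.57 and the WT arrays 11.19, 11.26, 11.31 and 11.22, with KO below WT throughout. This was a 1.43-fold decrease (log2 change -0.52, 95% interval -0.75 to -0.28, limma adjusted p = 0.0217 in the probe set fit). KO replicate 1 was the KO array nearest to WT. The call held only without KO replicate 1 (log2 change -0.66, adjusted p = 0.00633), and leaving out any other array gave an adjusted p of 0.0503 to 0.0703.

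Scarb1, or SR-BI, is the HDL receptor that takes up cholesteryl esters selectively and also lets free cholesterol out of cells. Its probe sets 1437378_x_at and 1455820_x_at, whose suffix marks probes that can match other sequences, ranged from 9.66 to 10.11 and from 9.73 to 10.10 in KO and from 9.87 to 10.04 and from 9.86 to 9.96 in WT. They had log2 changes of -0.06 (95% interval -0.30 to 0.17, limma adjusted p = 0.678 in the gene fit) and 0.07. At 1416050_a_at the KO arrays read 8.45, 7.95 and 8.05 and the WT arrays 8.59, 8.84, 8.55 and 8.69, without overlap. This was a 1.43-fold decrease (log2 change -0.52, 95% interval -0.80 to -0.23, limma adjusted p = 0.0362 in the probe set fit). The call held only without KO replicate 1 (log2 change -0.67, adjusted p = 0.0141), and leaving out any other array gave an adjusted p of 0.0633 to 0.115.

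In 8 of the 9 genes, all but Abcg1, the probe sets differed in sign. Changes near 0 count in this, such as -0.008 and 0.01 at Abca1, and the share over all genes was not counted. The size of the differences between probe sets was tested within arrays. For every gene of the table with at least 2 probe sets above the level filter, the log2 level of the brightest minus that of each other one was compared between KO and WT with limma over 9135 such differences. This comparison was chosen after the values of the probe sets had been seen. Of 14 differences in 7 member genes 5 passed (35.7%), against 33.6% of all differences (21% with the brighter probe set relatively higher in KO and 12.6% lower), so the members' share is near that of the whole array. In 4 of the 5 the brighter probe set was relatively higher in KO, and in Lrp1 it was relatively lower.

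**Figure D3:**
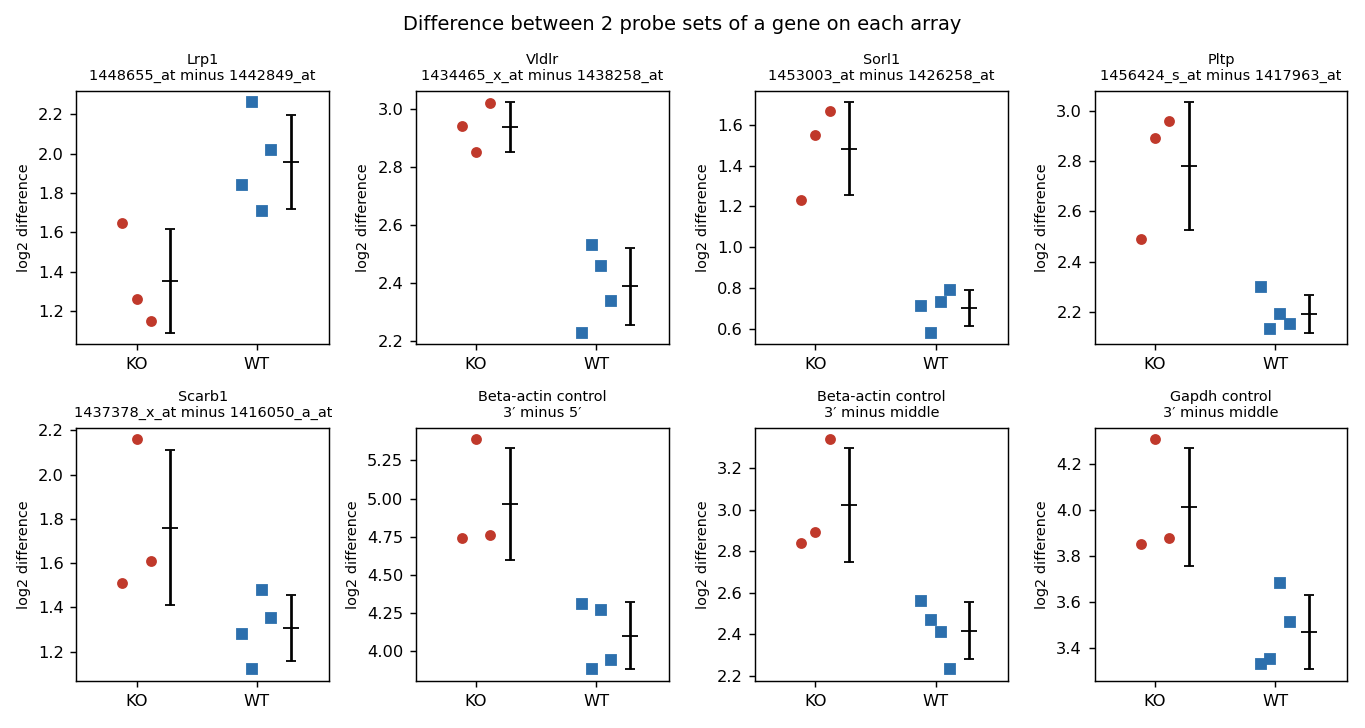
Log2 difference between 2 probe sets of a gene on each array (points, KO red circles, WT blue squares) with the group mean and SD beside them, for the 5 within-gene differences that passed and for 3 control measures; each panel has its own y axis, which does not start at 0. Sorl1 lies between 1.23 and 1.67 in KO and between 0.58 and 0.79 in WT, and the beta-actin control 3′ minus 5′ between 4.74 and 5.39 in KO and between 3.88 and 4.31 in WT.

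At Sorl1 1453003_at exceeded 1426258_at by 1.23, 1.55 and 1.67 in KO and by 0.71, 0.58, 0.73 and 0.79 in WT, a KO minus WT difference of 0.78 (95% interval 0.53 to 1.03, limma adjusted p = 0.00215). At Pltp the difference of 1456424_s_at over 1417963_at was 2.49, 2.89 and 2.96 in KO and 2.30, 2.13, 2.19 and 2.15 in WT (KO minus WT 0.59, limma adjusted p = 0.00594). At Vldlr that of 1434465_x_at over 1438258_at was 2.94, 2.85 and 3.02 against 2.23, 2.53, 2.46 and 2.34 (0.55, limma adjusted p = 0.00368). These 3 kept their call whichever array was left out. At Lrp1 1448655_at exceeded 1442849_at by 1.65, 1.26 and 1.15 in KO and by 1.84, 2.26, 1.71 and 2.02 in WT (-0.60, limma adjusted p = 0.0151, and 0.0579 without KO replicate 3). At Scarb1 1437378_x_at exceeded 1416050_a_at by 1.51, 2.16 and 1.61 against 1.28, 1.12, 1.48 and 1.35 (0.45, limma adjusted p = 0.0459, and up to 0.111 without KO replicate 2 or 3 or WT replicate 1, 2 or 4). KO and WT did not overlap in any of these 5, nor in 8 of the 14 in all, against 41% of all differences, as in the 3 control measures given above. With a control measure as covariate 0 of the 14 passed in limma, with 2 to 5 at unadjusted p under 0.05, and 0 to 3 of all 9135. The sources used here do not say where each probe set lies on its transcript, and the part of RNA quality in these differences was not tested.

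The genes around the members were taken from 8 lists of 124 genes, drawn up with earlier results of these data known. The platform annotation named 113 on the array, and 98 lay above the level filter. Of these 23 passed (23.5%), 21 lower and 2 higher, against 15.6% of all genes tested. Over all genes tested 10% were lower and 5.56% higher, which is also the measure for each list below. The median log2 change was -0.11 over the 98 genes and -0.003 over all. For the 98 genes the split was 12 lower and 5 higher after quantile normalization and 13 lower and 3 higher after cyclic loess. Leaving out 1 array gave 9 calls (WT replicate 4), 10 (WT replicate 1, and also KO replicate 3), 13 (WT replicate 2), 14 (WT replicate 3), 18 (KO replicate 2) or 19 (KO replicate 1), while 6.71% to 14.7% of all genes passed. With any of the 3 control measures as covariate 0 of the 98 passed in limma, with 12 to 23 at unadjusted p under 0.05, and 0 to 5 of all 13285 genes.

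**Figure D4:**
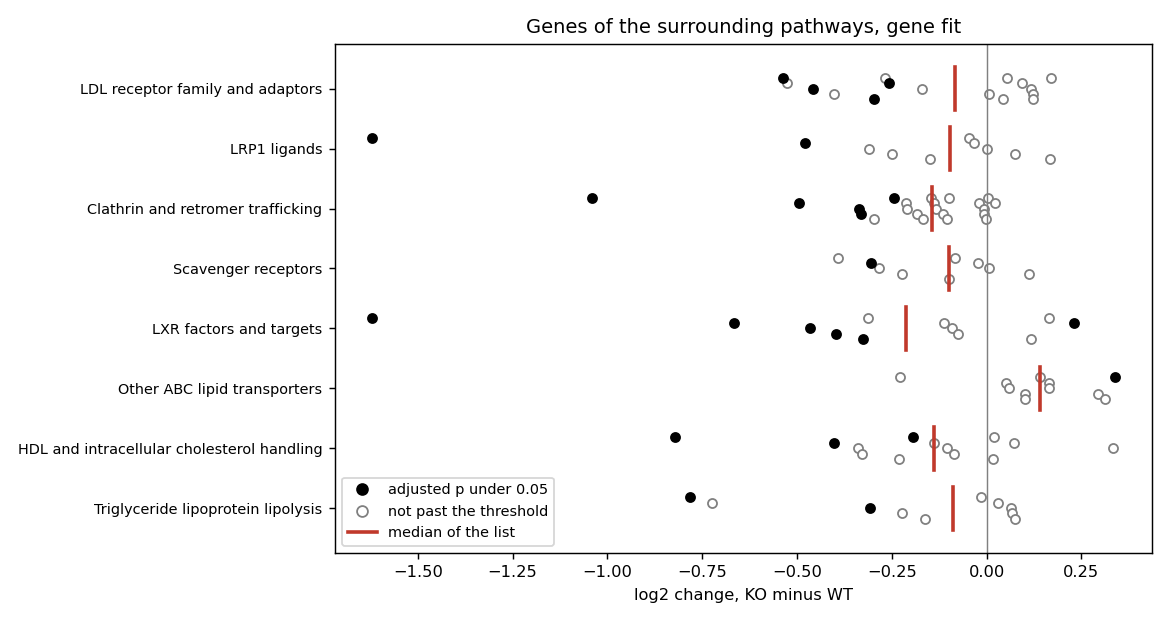
Log2 change, KO minus WT, of the tested genes of each of 8 pathway lists in the gene fit, with filled points for adjusted p under 0.05, open points for the others and a red bar at the median of the list. Some genes stand in 2 lists. Apoe, at -1.62, and Ap2s1, at -1.04, lie farthest to the left, and the list of other ABC lipid transporters has its median at 0.14.

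Among relatives of the receptors and their adaptors, 4 of 16 tested genes fell and 0 rose, with a median log2 change of -0.08. Lrp4, a receptor of agrin and of Wnt antagonists, read 6.99, 6.99 and 6.98 in KO and 7.57, 7.45, 7.48 and 7.59 in WT. The decrease was 1.45-fold (log2 change -0.54, limma adjusted p = 0.00526). Dab2, an adaptor that links LDL receptor tails to clathrin, read 9.20 to 9.24 in KO and 9.45 to 9.83 in WT, a 1.37-fold decrease (limma adjusted p = 0.0156), and 2 of its 3 other probe sets also passed, with log2 changes of -0.50 and -0.37. Sort1, sortilin, a Vps10 relative of Sorl1, and Lrp6, a Wnt co-receptor, fell with log2 changes of -0.30 and -0.26, but Lrp6 lost its call whichever array was left out and Sort1 in 6 of 7 cases. The 2 other probe sets of Sort1 stood at -0.15 and -0.04 and did not pass, and that of Lrp6 passed at -0.40. Of 10 tested ligands of Lrp1, Apoe and the chaperone calreticulin, Calr, fell. Apoe read 6.80, 5.83 and 6.47 in KO and 7.94, 8.27, 7.75 and 7.99 in WT (log2 change -1.62, limma adjusted p = 0.00648). Calr fell 1.39-fold (limma adjusted p = 0.0107), with its 2 other probe sets at -0.45 and -0.47.

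Of 22 genes of clathrin coats and retromer, 5 fell and 0 rose, with a median log2 change of -0.14. Ap2s1, the small subunit of the adaptor complex that gathers receptors into coated pits, read 7.17, 6.65 and 7.17 in KO and 8.34, 8.09, 7.64 and 8.08 in WT, a 2.06-fold decrease (limma adjusted p = 0.0104). Cltb, a clathrin light chain, fell 1.41-fold, Cltc, the clathrin heavy chain, 1.26-fold and Ap2a2, a large subunit of the same adaptor, 1.26-fold. The others of Cltb stood at -0.18 and 0.06, neither of them called. The other probe set of Cltc had a log2 change of 0.14, and those of Ap2a2 lay between -0.20 and 0.07. Cltc and Ap2a2 lost their calls in 5 and 3 of the 7 cases in which an array was left out. Among 9 scavenger receptors 1 fell, near the 10% of all genes tested that fell. This was Scarb2, the lysosomal relative of Scarb1, lower by 0.30 on the log2 scale at one probe set and by 0.63 at the other. The first call was lost in 2 of 7 cases.

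Of 12 tested LXR factors and targets 5 fell and 1 rose, with a median log2 change of -0.21. The 5 include Apoe, which is also counted above among the ligands of Lrp1. Nr1h3, which encodes LXR alpha, read 6.15, 5.83 and 5.93 in KO and 6.77, 6.50, 6.55 and 6.73 in WT. The decrease was 1.59-fold without overlap (log2 change -0.67, limma adjusted p = 0.00807). Lpcat3, an LXR-induced enzyme of phospholipid remodelling, fell 1.38-fold (limma adjusted p = 0.0189), and Nrip1, a nuclear receptor cofactor, 1.32-fold (0.0404), while the other 5 probe sets of Nrip1 lay between -0.17 and 0.14. With 1 array left out Nrip1 lost its call in 6 of 7 cases and Lpcat3 in 2. Srebf1, a regulator of fatty acid synthesis and the one gene of the list that rose, had a log2 change of 0.23 (limma adjusted p = 0.0446), and it is named here after its value was seen. Its call was lost at least without WT replicate 2, 3 or 4, when 0 of the 98 genes passed higher. The LXR targets Abca1, Abcg1 and Pltp stood at -0.008, -0.25 and 0.07 in the same fit.

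Of 11 other ABC lipid transporters 0 fell and 1 rose: Abcb4, a phosphatidylcholine floppase, had a log2 change of 0.34 (limma adjusted p = 0.0330, and up to 0.0943 with 1 array left out, when 5 of 7 cases lost the call). Of 13 genes of HDL and of cholesterol handling inside cells 3 fell. Npc1, which exports cholesterol from lysosomes, read 7.54, 7.67 and 7.28 in KO and 8.31, 8.26, 8.36 and 8.34 in WT, a 1.77-fold decrease (log2 change -0.82, limma adjusted p = 0.00526) that held whichever array was left out. Lipg, endothelial lipase, fell 1.32-fold, with a second probe set at -0.49 and its call lost in 4 of the 7 cases, and Osbp, an oxysterol-binding protein, had a log2 change of -0.20 whose call was lost whichever array was left out. Of 10 genes of triglyceride lipolysis, Angptl4, an inhibitor of lipoprotein lipase, fell 1.72-fold (limma adjusted p = 0.0363) and Lmf1, a maturation factor of the lipase, 1.24-fold (0.0402). Each lost its call in 5 of the 7 cases with 1 array left out.

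The tested genes whose levels followed those of the 2 called members most closely were found by the root mean square difference of mean-centred log2 levels over the 7 arrays, given as a description. For Lrp1, whose own centred levels spanned 0.74, these were Tsnax (0.028), Ogdh (0.044) and BC005537 (0.044), with log2 changes of -0.49, -0.55 and -0.46. For Sorl1 at 1453003_at, with a span of 0.42, they were Wdr11 (0.034), Nphs1 (0.035) and Zranb1 (0.037), with log2 changes of 0.29, 0.35 and 0.32.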

How the data were processed

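Total RNA of 7 left lungs, 3 KO and 4 WT, was measured on 1 array each, grouped by the labels, which call them biological replicates. The log2 values, for 45101 probe sets including 64 controls, were used as deposited by the authors. The tools, per the submitters' processing notes, were RMA, MAS5 and Affymetrix Expression Console. No version or role is given there, so it is unknown which made the table, and the log2 scale rests on the values themselves, with array medians of 6.10 to 6.15. Of 45037 probe sets that are not controls, 34945 had 1 gene, 932 several and 9160 none in the platform annotation, and names were updated by gene identifier for 34741.

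The test of KO against WT was lmFit with eBayes (limma 3.58.1, R 4.3.3) on genotype alone, over 13285 genes and over all 45037 probe sets. Genes took their probe set with the highest mean, with a mean from the 40th percentile of probe set means upward. The fit was tested on simulated data. All 9 members were named. From each pathway list, up to 4 called genes with the smallest p were named. The members and lists were chosen with earlier results of these data known. Alternatives covered normalization, level filter, choice of probe sets, variance model, array weights, covariates, the replicate number as block, a subset of 5 mice by lowest mouse number, and each array left out. Differences between probe sets of a gene were added after the data were seen. The values were already on a log scale, so no pseudocount was used. The number of arrays limits the precision. Promoter windows came from RefSeq. Python 3.11.15 and matplotlib 3.10.9 drew the figures.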

Additional observations from a re-analysis of the deposited data

Results flagged for a closer look

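Among 66 sets of 4 WT values that were checked, 4 had 1 array far from the other 3, where chance alone gives about 1 in 20. Xist is among the 4, and there the array apart is the one that reads as female. Abca1 at 1421840_at read 10.60 in WT replicate 3 and 10.85 to 10.87 on the other WT arrays, and the log2 change between the groups, -0.008, was between -0.07 and 0.05 with any one array left out. At the dim Abca1 probe set 1421839_at WT replicate 1 read 3.95 and the others 4.01 to 4.02. At the dim Vldlr probe set 1451156_s_at WT replicate 3 read 4.21 and the others 4.29. Xist stood at 12.72 in WT replicate 4 against 6.31 to 6.44 on the other WT arrays, and with Xist as a covariate Lrp1 had a log2 change of -0.51 (limma adjusted p = 0.0293) and Sorl1 one of 0.35 (adjusted p = 0.0328). Groups of 3 were not checked.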

How the results depend on the processing

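Lrp1 and Sorl1 kept direction under all 21 alternatives of the gene fit and passed under 16 and 15 of them. These alternatives are not independent. A change of level filter or an intensity trend leaves the log2 change as it was, so its direction could not differ there. The replicate block gave the same log2 changes as leaving out WT replicate 4, -0.51 and 0.35. The count of 2 member genes was 1 with the mean of all probe sets, where Sorl1 was at 0.032 (limma adjusted p = 0.723), and 2 to 3 with an array left out. It was 0 in limma with the beta-actin 3′ minus 5′, beta-actin 3′ minus middle or Gapdh covariate, the replicate block or the 5 lowest mouse numbers, when 1, 3, 3, 2 and 2 genes had unadjusted p under 0.05 and 0, 0, 5, 371 and 0 of all 13285 genes passed. In that order Lrp1 was at -0.28, -0.46, -0.32, -0.51 and -0.58 (adjusted p = 0.374, 0.331, 0.243, 0.0542 and 0.0745) and Sorl1 at 0.29, 0.31, 0.34, 0.35 and 0.32 (0.309, 0.361, 0.181, 0.0752 and 0.109). The count of 6 member probe sets was 0 in limma in the same 5 cases, with 4, 5, 5, 10 and 8 at unadjusted p under 0.05 and 0, 1, 13, 1322 and 0 of all 45037 passing, 2 with the Xist covariate, and 2 to 6 with an array left out. The count of 23 pathway genes was 9 with the Xist covariate (7.04% of all genes), 0 with each control covariate (12, 17 and 23 at unadjusted p under 0.05), 6 with the replicate block, 0 among the 5 lowest mouse numbers (31), and 9 to 19 with an array left out. The count of 5 unequal differences, out of 14, was 0 with each control covariate, 3 among the 5 lowest mouse numbers, 4 with the replicate block and 3 to 6 with an array left out. Of all 9135 differences 11.9% passed among the 5 lowest mouse numbers, 23% with the replicate block and 23.8% to 30.7% with an array left out. The correlations of same-numbered deviations were 0.0033, -0.042 and 0.035 for replicates 1, 2 and 3. Those of differently numbered arrays ran from -0.29 to 0.26. Deviations from a group mean balance out within the group, so these values cannot tell whether the replicate numbers pair the arrays.

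Members that did not pass changed sign under some settings. After quantile normalization and cyclic loess the log2 changes were -0.016 and -0.031 for Lrp8, 0.038 and 0.0081 for Vldlr, 0.051 and 0.045 for Lrpap1, 0.075 and 0.059 for Abca1, and 0.034 and 0.0010 for Scarb1. With the beta-actin 3′ minus 5′ covariate Lrp8 was at -0.29, Vldlr at 0.033 and Pltp at -0.0031, with the beta-actin 3′ minus middle covariate Lrpap1 at 0.13, Pltp at -0.0045 and Scarb1 at 0.35, and with the Gapdh covariate Lrp8 at -0.26 and Vldlr at 0.28. With the mean of all probe sets Abca1 was at 0.035 and Pltp at -0.22. Lrpap1 was at 0.0074 and Abca1 at 0.012 with the Xist covariate, at 0.01 and 0.013 with the replicate block, and Lrpap1 at 0.015 among the 5 lowest mouse numbers. With an array left out the range was -0.08 to 0.11 for Lrp8, -0.13 to 0.027 for Vldlr, -0.078 to 0.018 for Lrpap1, -0.073 to 0.05 for Abca1 and -0.17 to 0.06 for Scarb1. Abcg1 passed with an intensity trend (-0.25, limma adjusted p = 0.0468) and without KO replicate 2, and lay between -0.32 and -0.21 with an array left out. Lrp8 lay under the stricter filter and under the filter with the mean of all probe sets, so it has no value there. The Scarb1 difference of 1437378_x_at over 1416050_a_at turned to -0.19 with the beta-actin 3′ minus 5′ covariate and to -0.17 with the Gapdh covariate. The cause of these changes was not tested. The number of arrays limits what can be told apart, and dim probe sets of Lrp8 and Abca1 lie near the low end of the scale.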
